A study of Rattus norvegicus with 15 samples.

Results

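A set of 10 genes that natural killer (NK) cells and cytotoxic T cells use to find and kill target cells was followed through 15 rat lung transcriptomes. They were taken by symbol from a table of 22250 genes: the granule genes Nkg7, Prf1, Gzma, Gzmb and Gzmk, the receptor genes Klrd1, Klrk1 and Ncr1, and the transcription factor genes Eomes and Tbx21. All 10 had a row, and 8 passed the filter on low values, a level of at least 1 FPKM in at least 5 libraries. Gzmb and Eomes did not pass it. FPKM counts fragments per length of transcript and per number of mapped fragments, so that levels can be set side by side between genes. That holds less well here, since long and short housekeeping transcripts differed between control lungs and both other groups, as given below.

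The libraries came from lungs of wild-type rats and formed 3 groups of 5. WDD rats were a model of chronic obstructive pulmonary disease, exposed to lipopolysaccharide and smoke through the trachea, and also received Wendan Decoction, a Chinese herbal formula, by gavage. COPD rats had the same exposure without the decoction, and control rats were normal animals. The sources used here give neither the strain, age and sex of the animals nor the length of the exposure. Whether every library stands for its own rat is not stated in the labels, and p-values then measure only the spread between these samples. In whole lung, fewer cells of a type and less RNA per cell cannot be told apart.

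NK cells and cytotoxic T cells kill by releasing granules onto a target. Perforin opens the target's membrane, and granzymes, which are serine proteases, enter and cleave proteins inside. NK cells decide whether to fire from paired sets of activating and inhibiting receptors, whereas T cells use their antigen receptor with its CD3 chains. T-bet and eomesodermin are T-box transcription factors that direct the development of both cell types, and the lung holds many resident and circulating NK cells.

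Library makeup differed between the groups. The share of the FPKM sum taken by mitochondrially encoded genes was 21.8% ± 2.90 in WDD lungs, 44.9% ± 12.4 in COPD lungs and 8.11% ± 1.94 in control lungs (mean ± SD, n = 5 each). All 3 pairs of groups differed in exact permutation tests (two-sided p = 0.00794 each, the lowest that 5 libraries against 5 can give). The median difference over all 13172 genes tested was -0.81 for COPD against control, 0.54 for WDD against COPD and -0.23 for WDD against control, on the log2(FPKM + 1) scale. Differences are therefore also given after median-of-ratios scaling, which brought those medians to -0.046, 0.034 and 0.0089. The log2 level of long housekeeping transcripts minus that of short ones, a sign of RNA quality, averaged -3.88 ± 0.35 in WDD, -4.06 ± 0.61 in COPD and -2.26 ± 0.47 in control lungs (SD, n = 5 each). Neutrophil marker genes summed to 87.8 to 444 FPKM in WDD, 11810 to 43190 FPKM in COPD and 45.9 to 98.2 FPKM in control lungs. The part of mitochondrial share, transcript length and neutrophil content in the results below was not tested. Lung markers such as surfactant proteins were abundant in every library, with summed levels of 37230 to 58910 FPKM in WDD, 4913 to 25100 FPKM in COPD and 27490 to 39000 FPKM in control lungs.

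COPD lungs held more Gzma than control lungs, and less Gzmk, Klrd1, Klrk1, Prf1 and Nkg7, as the values were deposited. The limma test called 1 of the 8 members tested higher and 5 lower, while Ncr1 and Tbx21 were not called. Of all genes tested, 8.23% were called higher, 66.4% lower and 74.7% either way, so the share of members called lower was close to that of the table. The member median was -0.72, against -0.81 over all genes. After scaling, 3 members were called higher (Gzma, Ncr1 and Tbx21) and 0 lower, against 30.2% of all genes called higher and 32.3% lower. Gzma was thus the member called higher both before and after scaling. WDD lungs, against COPD lungs, held more Klrd1, Gzmk and Klrk1 and less Gzma as deposited: 3 members were called higher, 1 lower and 4 not called, against 57.1% of all genes higher, 6.63% lower and 63.8% either way. After scaling, Klrd1 was called higher and Gzma and Ncr1 lower, against 23.3% of all genes higher and 21.4% lower. The comparison of COPD with control and that of WDD with COPD share the COPD libraries.

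**Figure D1:**
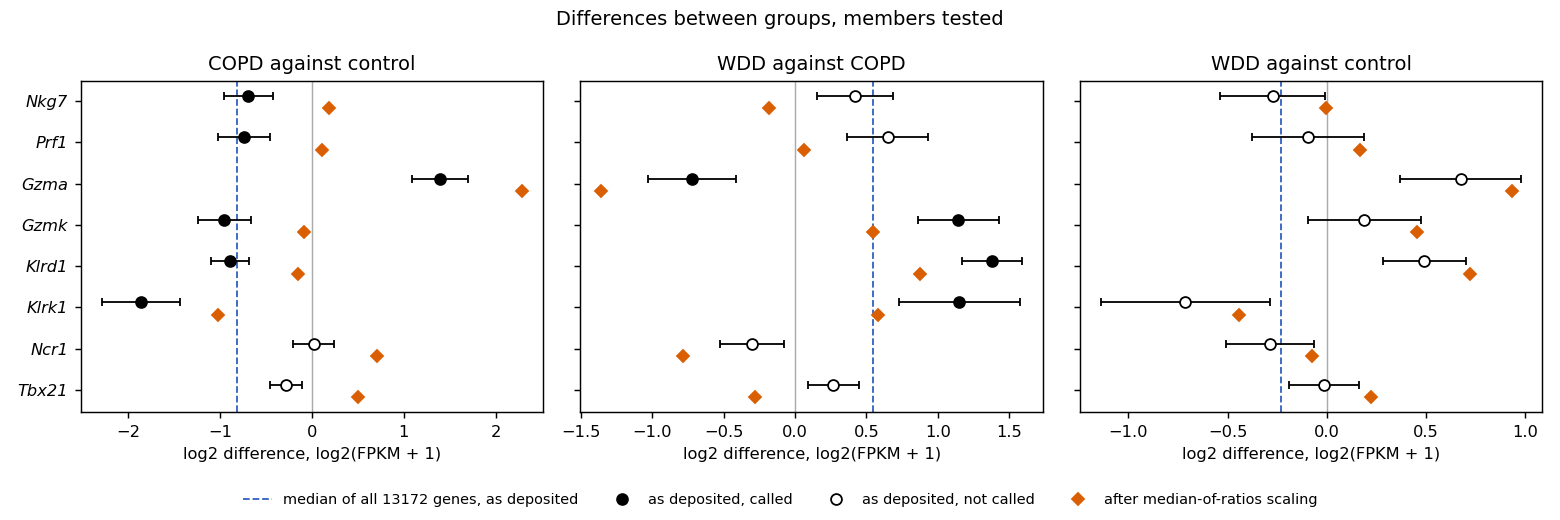
Log2 difference of each member tested (horizontal axis, log2(FPKM + 1) scale), with black circles and standard error bars for the deposited values, filled where called, and diamonds after median-of-ratios scaling. Gzma lies at 1.40 in COPD against control and at 2.29 after scaling, while Nkg7 and Prf1 lie at -0.69 and -0.74 and change sign to 0.18 and 0.10 after scaling.

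The granzyme genes Gzma and Gzmk, which lie side by side in the genome, went opposite ways in COPD lungs as deposited. Gzma encodes granzyme A, a trypsin-like protease, and Gzmk encodes the related granzyme K. Both are on chromosome 2 with 0 protein-coding genes between them in the RefSeq annotation. The 250 bases before each gene's start are shown because the genes are neighbours with different readouts. They come from RefSeq on build GRCr8, whereas the expression values were made on Rnor_6.0. The window of Gzma is chr2:46485697-46485946 and that of Gzmk chr2:46582016-46582265, both on the minus strand and written 5′ to 3′ along the gene. Capitals mark a match to the T-box motif GGTGTGA or to the Runx motif TGTGGTT, searched on both strands (reverse complements TCACACC and AACCACA).
Gzma: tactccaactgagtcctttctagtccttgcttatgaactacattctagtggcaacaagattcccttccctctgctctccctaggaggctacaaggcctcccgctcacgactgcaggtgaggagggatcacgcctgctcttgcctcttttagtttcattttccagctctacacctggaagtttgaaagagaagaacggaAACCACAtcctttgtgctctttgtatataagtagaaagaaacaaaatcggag
Gzmk: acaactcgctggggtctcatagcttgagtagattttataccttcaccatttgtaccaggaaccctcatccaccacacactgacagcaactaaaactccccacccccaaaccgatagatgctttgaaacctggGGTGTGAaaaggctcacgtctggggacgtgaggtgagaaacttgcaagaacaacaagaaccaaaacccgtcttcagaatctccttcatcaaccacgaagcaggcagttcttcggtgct
The Gzma window held a Runx match that began 52 bases before the start, and the Gzmk window a T-box match that began 118 bases before it. Of 33469 windows of this length before rat genes, 4.59% held the Runx motif and 3.22% the T-box motif. Among the 8 members in the RefSeq promoter table, which were all but Klrd1 and Ncr1, 3 held the Runx motif (Gzma, Gzmb and Eomes) and 1 the T-box motif. These matches are letters in a window and do not show that a factor binds there.

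Gzma (ENSRNOG00000010603) was at 16.1, 27.1, 16.2, 41.6 and 42.6 FPKM in WDD lungs, 43.8, 50.0, 66.7, 47.0 and 24.1 FPKM in COPD lungs, and 20.3, 11.6, 13.9, 14.1 and 23.6 FPKM in control lungs (libraries 1 to 5 in each group). Every COPD library lay above every control library, although COPD 5 did so narrowly. WDD libraries 2, 4 and 5 lay within the COPD range, and WDD 1 and 3 within the control range. Gzma averaged 46.3 ± 15.2 FPKM in COPD and 16.7 ± 5.01 FPKM in control lungs (SD, n = 5 each), a rise of 1.40 ± 0.31 on the log2(FPKM + 1) scale (limma, SE, adjusted p = 0.000611). Its difference between WDD and COPD lungs was -0.72 ± 0.31 (limma, adjusted p = 0.0491), a call that was lost when any of 11 of the 15 libraries was left out, with values between -0.93 and -0.55. After scaling it was -1.36 (limma, adjusted p = 0.00161).

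Gzmk (ENSRNOG00000010661) was at 11.8, 25.3, 22.3, 34.9 and 29.1 FPKM in WDD lungs, 5.21, 13.0, 14.2, 13.6 and 7.41 FPKM in COPD lungs, and 23.0, 16.5, 16.4, 20.4 and 27.3 FPKM in control lungs. All COPD libraries lay below all control libraries, and WDD 1 was the WDD library that reached into the COPD range. Gzmk fell in COPD against control by 0.95 ± 0.28 on the log2(FPKM + 1) scale (limma, adjusted p = 0.00622), and rose in WDD against COPD by 1.14 ± 0.28 (limma, adjusted p = 0.0025). After scaling the differences were -0.088 and 0.54, and neither was called. The fall was also not called without COPD 1 and COPD 5 together, at -0.55 (limma, adjusted p = 0.0649).

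The ratio of Gzmk to Gzma within a library does not depend on the scaling of whole libraries, apart from the pseudocount of 1. Its log2 value was -0.41, -0.10, 0.44, -0.25 and -0.54 in WDD lungs, -2.85, -1.87, -2.15, -1.72 and -1.58 in COPD lungs, and 0.18, 0.47, 0.22, 0.50 and 0.21 in control lungs. COPD lungs overlapped with neither other group. The difference was -2.35 for COPD against control and 1.86 for WDD against COPD (exact permutation tests, two-sided, adjusted p = 0.0238 each over the 24 ratio tests). This adjusted value is the smallest that 5 against 5 gave here. WDD and control lungs differed by -0.49 in this ratio (exact permutation test, adjusted p = 0.0635), and by -0.64 without WDD 3 (adjusted p = 0.0238).

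Gzmb (ENSRNOG00000045973), which encodes granzyme B, the granzyme known for activating caspases in target cells, was close to undetected. It was listed at 0, 0.0481, 0.0483, 0.0481 and 0.206 FPKM in WDD lungs, at 0, 0, 0, 0 and 0.0940 FPKM in COPD lungs, and at 0.0508, 0.153, 0.107, 0.0511 and 0.265 FPKM in control lungs. After correction for relative depth these values were whole multiples, within 0.0067, of a step of 0.0511 FPKM. They amounted to 0, 1, 1, 1 and 4 steps in WDD lungs, 0, 0, 0, 0 and 2 in COPD lungs and 1, 3, 2, 1 and 5 in control lungs, so that no value rests on more than 5 steps. In the limma fit without the filter on low values its difference was -0.14 ± 0.0575 for COPD against control (adjusted p = 0.0451), and after scaling it was -0.085, not tested. Gzmbl2, a granzyme B-like gene of the rat, was at 3.57 ± 1.80 FPKM in WDD, 6.41 ± 2.87 FPKM in COPD and 1.77 ± 0.90 FPKM in control lungs (SD, n = 5 each). It rose in COPD against control by 1.38 ± 0.33 on the log2(FPKM + 1) scale (limma, adjusted p = 0.00119), although single libraries overlapped. How fragments that match several granzyme B-like genes were assigned was not stated in the labels or notes, so the split between them is uncertain. Gzmbl2 was singled out after its values were seen.

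Prf1 (ENSRNOG00000000562), the gene of perforin, was at 6.17, 12.6, 9.29, 20.1 and 19.6 FPKM in WDD lungs, 4.71, 9.10, 11.1, 7.40 and 6.91 FPKM in COPD lungs, and 12.3, 13.9, 10.4, 11.8 and 19.8 FPKM in control lungs. COPD 3 alone among COPD libraries lay above the lowest control. Prf1 fell in COPD against control by 0.74 ± 0.28 as deposited (limma, adjusted p = 0.0245) but stood at 0.10 after scaling. The call was lost without COPD 1 (-0.60, adjusted p = 0.0729) and without control 5 (-0.61, adjusted p = 0.0715) in limma. WDD against COPD gave 0.65 ± 0.28, which was not called (limma, adjusted p = 0.0534). It was 0.063 after scaling, and as deposited it was called without WDD 1 (0.87), WDD 3 (0.74) or COPD 3 (0.77).

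Nkg7 (ENSRNOG00000017749) encodes a membrane protein of cytotoxic granules that takes part in their release. It was at 11.3, 15.8, 13.9, 24.2 and 21.8 FPKM in WDD lungs, 10.5, 17.8, 16.1, 14.9 and 6.01 FPKM in COPD lungs, and 24.0, 18.8, 16.2, 17.3 and 28.5 FPKM in control lungs. COPD 2 lay within the control range, and COPD 1 and 5 were the lowest of all libraries. Nkg7 fell in COPD against control by 0.69 ± 0.26 as deposited (limma, adjusted p = 0.0253) and was at 0.18 after scaling. Leaving out COPD 1, COPD 5, control 1 or control 5 lost the call, with values of -0.64, -0.46, -0.64 and -0.58. The difference between WDD and COPD was 0.42 ± 0.26 and was not called (limma, adjusted p = 0.171). Within libraries the log2 ratio of Prf1 to Nkg7 differed by -0.049 for COPD against control and by 0.23 for WDD against COPD (exact permutation tests, adjusted p = 0.921 and 0.461).

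**Figure D2:**
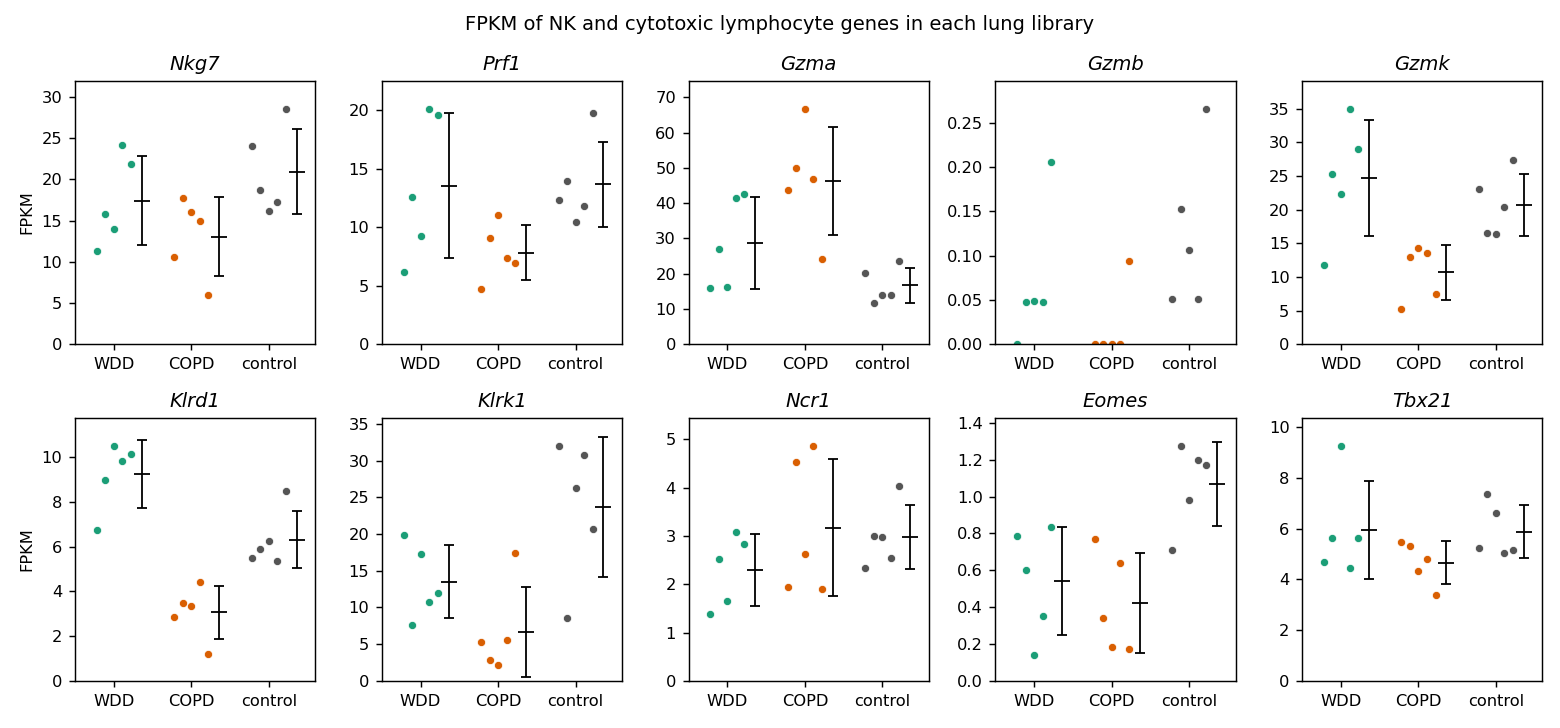
FPKM of each member (vertical axis, starting at 0) in the 5 libraries of the WDD, COPD and control groups, in library order, with the mean ± SD beside the points except for Gzmb. Gzma reached 66.7 FPKM in COPD lungs against at most 23.6 FPKM in control lungs, whereas the Klrd1 points of COPD lungs, 1.21 to 4.42 FPKM, lay below those of both other groups.

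Among the 3 receptor genes, Klrd1 (ENSRNOG00000060246) was the one whose COPD libraries overlapped with neither other group as deposited. It encodes CD94, which pairs with NKG2 chains to read non-classical MHC class I molecules on other cells. Klrd1 was at 6.76, 8.98, 10.5, 9.84 and 10.2 FPKM in WDD lungs, 2.87, 3.47, 3.37, 4.42 and 1.21 FPKM in COPD lungs, and 5.48, 5.92, 6.27, 5.38 and 8.49 FPKM in control lungs. Every COPD library lay below every WDD and every control library, but after scaling the COPD and control libraries overlapped. Klrd1 fell in COPD against control by 0.89 ± 0.21 on the log2(FPKM + 1) scale (limma, adjusted p = 0.00107), with -0.15 after scaling and 0.16 after quantile normalisation, neither of which was called. It rose in WDD against COPD by 1.38 ± 0.21 (limma, adjusted p = 4.3e-05) and by 0.87 after scaling (limma, adjusted p = 0.00272), and the WDD and COPD libraries did not overlap on either scale. Counts of members whose libraries did not overlap were 1 higher and 2 lower for COPD against control, where 3.99% and 52.3% of all genes did so. For WDD against COPD they were 1 higher and 0 lower, against 40.6% and 4.43% of all genes.

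Klrk1 (ENSRNOG00000061739), the gene of the activating receptor NKG2D and the neighbour of Klrd1 on chromosome 4, was widely spread within groups. It was at 19.9, 7.55, 17.2, 10.8 and 12.02 FPKM in WDD lungs, 5.32, 2.81, 2.19, 5.59 and 17.4 FPKM in COPD lungs, and 32.0, 8.58, 26.3, 30.8 and 20.6 FPKM in control lungs. COPD 5 was far above the other COPD libraries and control 2 far below the other controls, so the groups overlapped. Klrk1 fell in COPD against control by 1.86 ± 0.43 on the log2(FPKM + 1) scale (limma, adjusted p = 0.000856), with -1.02 after scaling (limma, adjusted p = 0.0733). It rose in WDD against COPD by 1.15 ± 0.43 (limma, adjusted p = 0.0268), a call that was lost after scaling (0.58) and without WDD 1 (1.00), WDD 3 (1.05), COPD 2 (0.97) or COPD 3 (0.91).

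Ncr1 (ENSRNOG00000018458) encodes NKp46, an activating receptor that marks NK cells and related innate lymphoid cells and that most T cells lack. It was at 1.39, 2.53, 1.65, 3.09 and 2.84 FPKM in WDD lungs, 1.94, 4.53, 2.62, 4.86 and 1.91 FPKM in COPD lungs, and 2.34, 2.996, 2.97, 2.54 and 4.04 FPKM in control lungs. The 3 ranges overlapped, and COPD 2 and 4 were the highest of all libraries. As deposited its differences were 0.018 ± 0.22 for COPD against control and -0.30 ± 0.22 for WDD against COPD, neither of which was called (limma, adjusted p = 0.947 and 0.241). After scaling the 2 differences were 0.71 and -0.78 (limma, adjusted p = 0.00596 and 0.00501), and the COPD libraries no longer overlapped with those of either other group. The deposited differences of Ncr1 lay above the median of all genes in COPD against control and below it in WDD against COPD, which is what the scaled values show.

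Of the transcription factor genes, Tbx21 was called in no comparison as deposited, and Eomes was too low for the filter. Tbx21 (ENSRNOG00000009427), the gene of T-bet, was at 4.70, 5.65, 9.26, 4.44 and 5.63 FPKM in WDD lungs, 5.48, 5.30, 4.32, 4.80 and 3.41 FPKM in COPD lungs, and 5.26, 7.36, 6.61, 5.03 and 5.16 FPKM in control lungs. The groups overlapped, and WDD 3 stood above all other libraries. The differences of -0.28 ± 0.18 for COPD against control and 0.27 ± 0.18 for WDD against COPD were not called (limma, adjusted p = 0.161 and 0.198), and both changed sign after scaling, to 0.50 (called, limma adjusted p = 0.0269) and -0.28.

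Eomes (ENSRNOG00000042140), the gene of eomesodermin, was at 0.787, 0.601, 0.142, 0.354 and 0.833 FPKM in WDD lungs, 0.769, 0.339, 0.186, 0.640 and 0.173 FPKM in COPD lungs, and 0.709, 1.28, 0.979, 1.20 and 1.17 FPKM in control lungs. Control 1 was the control library that lay within the range of the other groups. Eomes did not pass the filter on low values. In a limma fit without that filter, over 18300 genes, it fell by 0.55 ± 0.15 in COPD against control (adjusted p = 0.00434) and by 0.44 ± 0.15 in WDD against control (adjusted p = 0.0378). After scaling the differences were smaller, at -0.18 and -0.28, and were not tested in that fit. The log2 ratio of Eomes to Tbx21 passed the threshold for no pair of groups in exact permutation tests (adjusted p = 0.19, 0.883 and 0.202 for COPD against control, WDD against COPD and WDD against control).

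The order of levels changed between groups. Long and short housekeeping transcripts also differed between control lungs and both other groups, and the part of transcript length in the order was not tested. In WDD lungs Gzma came first at 28.7 ± 13.0 FPKM (mean ± SD, n = 5), followed by Gzmk at 24.7 ± 8.59 FPKM and Nkg7 at 17.4 ± 5.41 FPKM. In COPD lungs Gzma came first at 46.3 ± 15.2 FPKM, above Nkg7 at 13.1 ± 4.77 FPKM and Gzmk at 10.7 ± 4.10 FPKM. In control lungs Klrk1 came first at 23.7 ± 9.54 FPKM, followed by Nkg7 at 20.9 ± 5.19 FPKM, Gzmk at 20.7 ± 4.64 FPKM and Gzma at 16.7 ± 5.01 FPKM. The libraries of Gzma in COPD lungs did not overlap with those of the next gene, whereas the leading genes of WDD lungs and of control lungs overlapped with their neighbours in the order. Tbx21, Ncr1, Eomes and Gzmb followed in that order at the low end of WDD and control lungs. In COPD lungs Klrd1 stood below Ncr1, at 3.07 ± 1.18 FPKM against 3.17 ± 1.43 FPKM, a difference within their spread.

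The receptor genes Ncr1 and Klrd1 and the granule gene Nkg7 were each set against Cd3e within libraries, while Klrk1 was not. Cd3e, which encodes a CD3 chain that T cells need and NK cells do not display, was at 14.8, 10.8, 17.1, 12.2 and 11.2 FPKM in WDD lungs, 0.431, 0.665, 0.783, 0.538 and 1.55 FPKM in COPD lungs, and 12.5, 14.2, 19.1, 10.04 and 16.8 FPKM in control lungs. The log2 ratio of Ncr1 to Cd3e averaged -2.12 ± 0.58 in WDD, 1.18 ± 0.69 in COPD and -1.95 ± 0.26 in control lungs (SD, n = 5 each). It differed by 3.13 for COPD against control and by -3.30 for WDD against COPD, with no overlap of libraries (exact permutation tests, adjusted p = 0.0238 each). It differed by -0.17 between WDD and control lungs (exact permutation test, adjusted p = 0.648). Ncr1 itself differed by 0.018 for COPD against control and -0.30 for WDD against COPD. Those 2 ratio differences therefore lie mostly in Cd3e. Cd3e is 1 of 17 T cell markers, whose medians were -1.47 and 1.63, so ratios to it do not stand for T cells as a whole. Cd3e lay below the pseudocount of 1 FPKM in every COPD library but COPD 5. With a pseudocount of 0.1 the 2 differences were 4.12 and -4.4.

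The same ratio for Klrd1 averaged -0.47 ± 0.37 in WDD, 1.15 ± 0.79 in COPD and -1.07 ± 0.26 in control lungs (SD, n = 5 each). It was higher in COPD than in control by 2.23 (exact permutation test, adjusted p = 0.0238) and lower in WDD than in COPD by 1.62 (difference -1.62, adjusted p = 0.0381, exact permutation test). COPD 5 lay within the WDD values. That second call was lost without WDD 1, 2, 3 or 4, at -1.48, -1.68, -1.57 and -1.67, where fewer libraries also raise the smallest p, and with a pseudocount of 0.1, at -2.34. For Nkg7 the ratio to Cd3e averaged 0.34 ± 0.63 in WDD, 2.92 ± 0.84 in COPD and 0.50 ± 0.45 in control lungs. The differences were 2.42 for COPD against control and -2.58 for WDD against COPD (exact permutation tests, adjusted p = 0.0238 each, no overlap). With a pseudocount of 0.1 they were 3.38 and -3.54, so the size of ratios to Cd3e depends on the pseudocount.

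**Figure D3:**
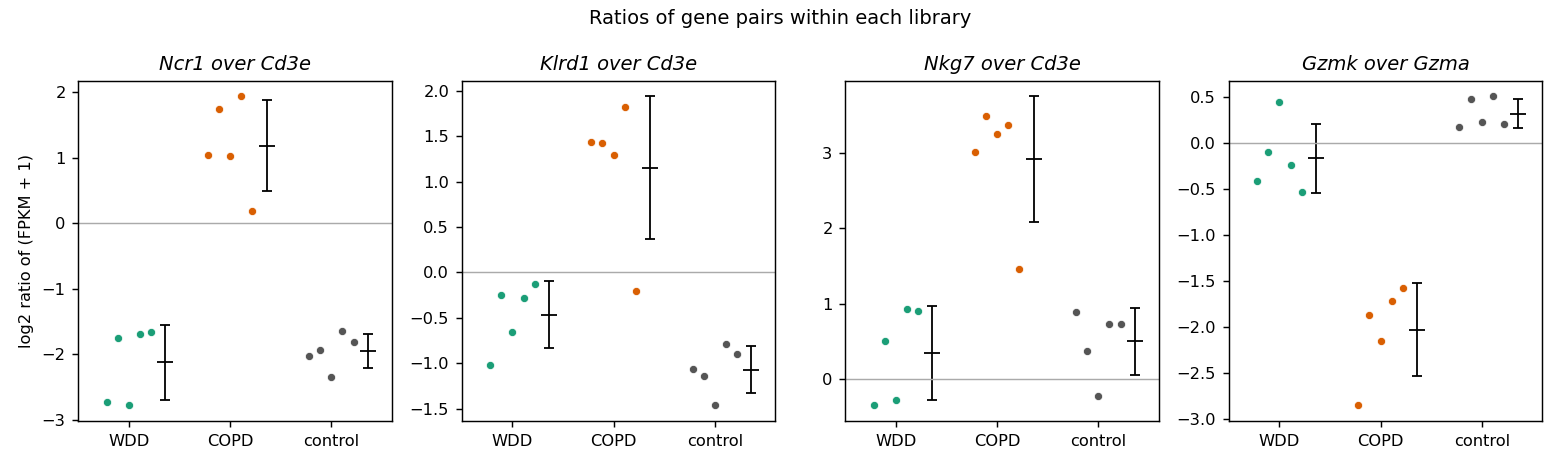
Log2 ratio of (FPKM + 1) of gene pairs (vertical axis) in each library of the WDD, COPD and control groups, with the mean ± SD beside the points. The Ncr1 to Cd3e ratio was above 0 in all 5 COPD libraries and below -1.6 in all WDD and control libraries, and the Gzmk to Gzma ratio was at or below -1.58 in COPD lungs against at least -0.54 elsewhere.

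Of 17 T cell markers, 16 fell in COPD against control, where 66.4% of all genes fell in limma. In WDD against COPD 16 rose, where 57.1% of all genes rose. The medians of the T cell markers were -1.47 and 1.63, against -0.81 and 0.54 over all genes. They were -0.83 and 1.19 after scaling. The summed level of the T cell markers was 198.5 to 277 FPKM in WDD, 33.8 to 83.5 FPKM in COPD and 201.8 to 271.5 FPKM in control lungs. The marker not called in either comparison was Cd8a, singled out after its values were seen. In the rat, CD8 alpha is carried by many NK cells as well as by T cells. Cd8a averaged 15.3 ± 4.94 FPKM in WDD, 18.6 ± 10.9 FPKM in COPD and 16.8 ± 2.09 FPKM in control lungs (SD, n = 5 each), with a COPD range of 4.29 to 29.5 FPKM. Cd8b, whose product pairs with CD8 alpha on T cells, fell in COPD against control by 1.03 ± 0.22 (limma, adjusted p = 0.000578). The 10 NK and cytotoxic genes summed to 78.9 to 149 FPKM in WDD, 68.6 to 121 FPKM in COPD and 87.1 to 139 FPKM in control lungs, ranges that overlapped.

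WDD lungs differed from control lungs in 0 of the 8 members tested by limma, where 37.3% of all genes were called, 6.35% higher and 31% lower. At an unadjusted p under 0.05, 2 members passed in limma, Gzma and Klrd1, and 2 of all 10 in exact permutation tests, Klrd1 and Eomes. Gzma stood at 0.67 ± 0.31 and Klrd1 at 0.49 ± 0.21 on the log2(FPKM + 1) scale (limma, adjusted p = 0.0953 and 0.0767). After scaling both were called higher, at 0.93 and 0.72 (limma, adjusted p = 0.023 and 0.0128), against 15.9% of all genes higher and 16.9% lower. Klrd1 was also called without WDD 1 (0.59) or COPD 5 (0.49), and Gzma without WDD 1 (0.84), WDD 3 (0.84) or COPD 5 (0.67). Klrk1 stood at -0.71 ± 0.43 and was not called (limma, adjusted p = 0.205). The other 5 members tested lay between -0.29 and 0.19. No member had all WDD libraries above or below all control libraries, which 6.76% and 31.4% of all genes did.

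Genes that work with the members were examined in 7 lists, for granule contents and release, receptors and adaptors, cytokine receptors, transcription factors, effector cytokines, homing, and ligands of NK receptors. In that order their medians for COPD against control were -0.22, -0.78, -0.73, -1.21, 0.31, -0.87 and -0.50 as deposited, and 0.71, -0.28, 0.15, -0.48, 0.90, 0.041 and 0.42 after scaling. For WDD against COPD they were -0.40, 0.62, 0.054, 0.45, -0.085, 0.49 and 0.47 as deposited, and -0.73, 0.34, -0.56, 0.14, -0.53, 0.055 and -0.18 after scaling. The granule, cytokine receptor, homing and ligand medians thus change sign in COPD against control, and the cytokine receptor and ligand medians in WDD against COPD. Counts, and differences of named genes unless scaling is stated, are of deposited values. They are to be read against the 66.4% of all genes called lower and 8.23% higher in COPD against control, with a median of -0.81. In WDD against COPD the shares were 57.1% higher and 6.63% lower, with a median of 0.54. Of 13 tested genes for granule contents and release, 4 rose, 4 fell and 5 were not called in COPD against control, with a median of -0.22. Cst7, the gene of cystatin F, an inhibitor of granule cathepsins, rose by 2.18 ± 0.24 to 80.0 ± 30.9 FPKM in COPD, against 16.5 ± 4.70 FPKM in control lungs (limma, adjusted p = 4.79e-07). Srgn, which encodes the granule proteoglycan serglycin, rose by 2.25 ± 0.29, and Stx11, a syntaxin needed for granule fusion, by 1.38 ± 0.18 (limma, adjusted p = 3.44e-06 and 3.24e-06). Neutrophils and macrophages also make serglycin, and the neutrophil marker sums given above were higher in the same libraries. Which cells held Cst7, Srgn and Stx11 was not tested. Ctsw, the gene of cathepsin W, a protease of NK and cytotoxic T cells, fell by 1.15 ± 0.31 in COPD against control and rose by 1.64 ± 0.31 in WDD against COPD (limma, adjusted p = 0.00287 and 0.000274). It averaged 20.9 ± 9.51 FPKM in WDD, 5.89 ± 2.18 FPKM in COPD and 14.3 ± 5.10 FPKM in control lungs. The Ctsw differences were -0.33 and 1.07 after scaling. Cst7, Srgn and Stx11 stood at 3.083, 3.185 and 2.275 in COPD against control after scaling.

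Of 19 receptor and adaptor genes tested, 2 rose, 11 fell and 6 were not called in COPD against control, with a median of -0.78, close to the -0.81 of all genes, of which 66.4% fell and 8.23% rose. The 2 that rose were Fcer1g and Tyrobp, by 2.51 ± 0.20 and 2.34 ± 0.28 (limma, adjusted p = 2.58e-08 and 1.4e-06), adaptor genes that NK cells share with neutrophils, macrophages and mast cells. Fcer1g reached 1500 ± 489 FPKM in COPD, against 253 ± 37.2 FPKM in control lungs. Slamf7, an activating receptor of NK cells that human plasma cells also carry, fell by 2.45 ± 0.16 to 0.814 ± 0.241 FPKM in COPD, against 9.06 ± 2.41 FPKM in control lungs (limma, adjusted p = 5.76e-09). It rose by 1.59 ± 0.16 in WDD against COPD and was lower in WDD than in control lungs, with a difference of -0.86 ± 0.16 (limma, adjusted p = 0.000723). Klrb1c, Cd96 and Klrg1, receptor genes of NK cells and T cells, fell by 1.37, 0.98 and 0.90 in COPD against control. They stood at -0.86, -0.54 and -0.45 after scaling, where Slamf7 stood at -1.83, Fcer1g at 3.45 and Tyrobp at 3.27. In WDD against COPD, 10 of the 19 rose, 2 fell and 7 were not called, with a median of 0.62. Mast cell markers are given beside Fcer1g. Of 10 mast cell markers, Cpa3, Ms4a2, Fcer1a, Tpsb2, Tpsab1 and Mcpt1 were below the filter on low values. Of the 4 tested, 2 fell and 2 were not called in COPD against control, where 66.4% of all genes fell. Their median was -1.24 as deposited and -0.59 after scaling. The 10 markers summed to 115 to 127.7 FPKM in WDD, 19.8 to 50.7 FPKM in COPD and 136.3 to 183.4 FPKM in control lungs. Which cells held Fcer1g and Tyrobp was not tested.

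Of 14 genes for cytokine receptors and their signal, 5 rose, 7 fell and 2 were not called in COPD against control. Il18r1 and Il18rap, the 2 chains of the interleukin-18 receptor, went apart: Il18r1 fell by 1.88 ± 0.18 and Il18rap rose by 1.16 ± 0.21 (limma, adjusted p = 1.36e-07 and 0.000118). Il18r1 averaged 1.22 ± 0.362 FPKM in COPD and 7.12 ± 1.04 FPKM in control lungs, and Il18rap 11.1 ± 4.03 FPKM in COPD and 4.28 ± 1.27 FPKM in control lungs, with no overlap of libraries for either. Neutrophil marker sums were higher in the same COPD libraries, and which cells held Il18rap was not tested. Il2rb, the chain through which NK cells receive interleukin-15, fell by 1.63 ± 0.21, and Il12rb2 and Il12rb1 of the interleukin-12 receptor by 1.04 ± 0.14 and 1.04 ± 0.16 (limma, adjusted p = 2.86e-06, 6.94e-06 and 2.25e-05). They stood at -0.81, -0.54 and -0.42 after scaling, where Il18r1 stood at -1.23 and Il18rap at 1.97. Il2rb rose in WDD against COPD by 1.01 ± 0.21 and was lower in WDD than in control lungs, with a difference of -0.63 ± 0.21 (limma, adjusted p = 0.000625 and 0.026). In WDD against COPD, 5 of the 14 rose, 4 fell and 5 were not called.

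Of 10 transcription factor genes other than the members, 1 rose and 9 fell in COPD against control, with a median of -1.21, where 66.4% of all genes fell and 8.23% rose with a median of -0.81. Nfil3, a factor that mouse NK cells need to develop and that is induced in many cell types, rose by 2.12 ± 0.27 (limma, adjusted p = 2.46e-06). Id2 fell by 1.40 ± 0.13 and Gata3, a factor of T cells and innate lymphoid cells, by 1.74 ± 0.21 (limma, adjusted p = 1.17e-07 and 1.37e-06). They stood at -0.49 and -1.13 after scaling, where Nfil3 stood at 2.96. In WDD against COPD, 5 rose, 1 fell and 4 were not called. Of 9 genes for effector cytokines, death ligands and chemokines, 4 rose and 4 fell in COPD against control, and the same numbers rose and fell in WDD against COPD. Csf2, the gene of the growth factor GM-CSF, rose by 2.31 ± 0.17, Ccl4 by 1.61 ± 0.21 and Ccl3 by 2.53 ± 0.54 in COPD, while Ccl5 fell by 1.67 ± 0.25 and Tnfsf10, the gene of the death ligand TRAIL, by 2.35 ± 0.28 (limma, adjusted p between 1.25e-08 and 0.000513). Each of these 5 went the other way in WDD against COPD and was called. In COPD against control, Ccl5 and Tnfsf10 stood at -0.76 and -1.49 after scaling, and Csf2, Ccl4 and Ccl3 at 3.22, 2.48 and 3.33. Ccl3 ranged from 4.76 to 100.2 FPKM in COPD lungs and overlapped with control lungs, at 1.77 to 6.45 FPKM. Neutrophil marker sums were higher in the same COPD libraries, and which cells held Csf2, Ccl3 and Ccl4 was not tested. Ifng, the gene of interferon gamma, was at 1.32 ± 0.652 FPKM in WDD, 0.233 ± 0.240 FPKM in COPD and 1.39 ± 0.824 FPKM in control lungs. It was named after its values were seen.

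Of 17 homing and residency genes, 4 rose, 10 fell and 3 were not called in COPD against control, and 7 rose, 5 fell and 5 were not called in WDD against COPD. Cxcr6 and Cxcr3, chemokine receptors of lung lymphocytes, fell by 2.75 ± 0.27 and 1.83 ± 0.24 in COPD and rose by 2.55 ± 0.27 and 2.26 ± 0.24 in WDD against COPD (limma, adjusted p between 1.93e-07 and 4.5e-06). Itgam, an integrin chain of NK cells that neutrophils carry at high level, rose by 1.51 ± 0.20 in COPD against control (limma, adjusted p = 3.73e-06), beside the neutrophil marker sums given above. Itga1, an integrin chain of resident lymphocytes that stromal cells also carry, fell by 2.50 ± 0.25 and was lower in WDD than in control lungs (-2.01 ± 0.25, limma, adjusted p = 4.92e-05). Cxcr6, Cxcr3 and Itga1 stood at -2.20, -1.13 and -1.90 in COPD against control after scaling, and Itgam at 2.355. Of 9 ligand genes for NK receptors, 1 rose, 4 fell and 4 were not called in COPD against control. Ulbp1, a ligand of NKG2D, fell by 1.56 ± 0.14 to 0.569 ± 0.0710 FPKM in COPD, against 3.67 ± 0.769 FPKM in control lungs (limma, adjusted p = 7.2e-08). Its difference was -1.03 after scaling. In WDD against COPD, 4 of the 9 rose and 5 were not called.

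**Figure D4:**
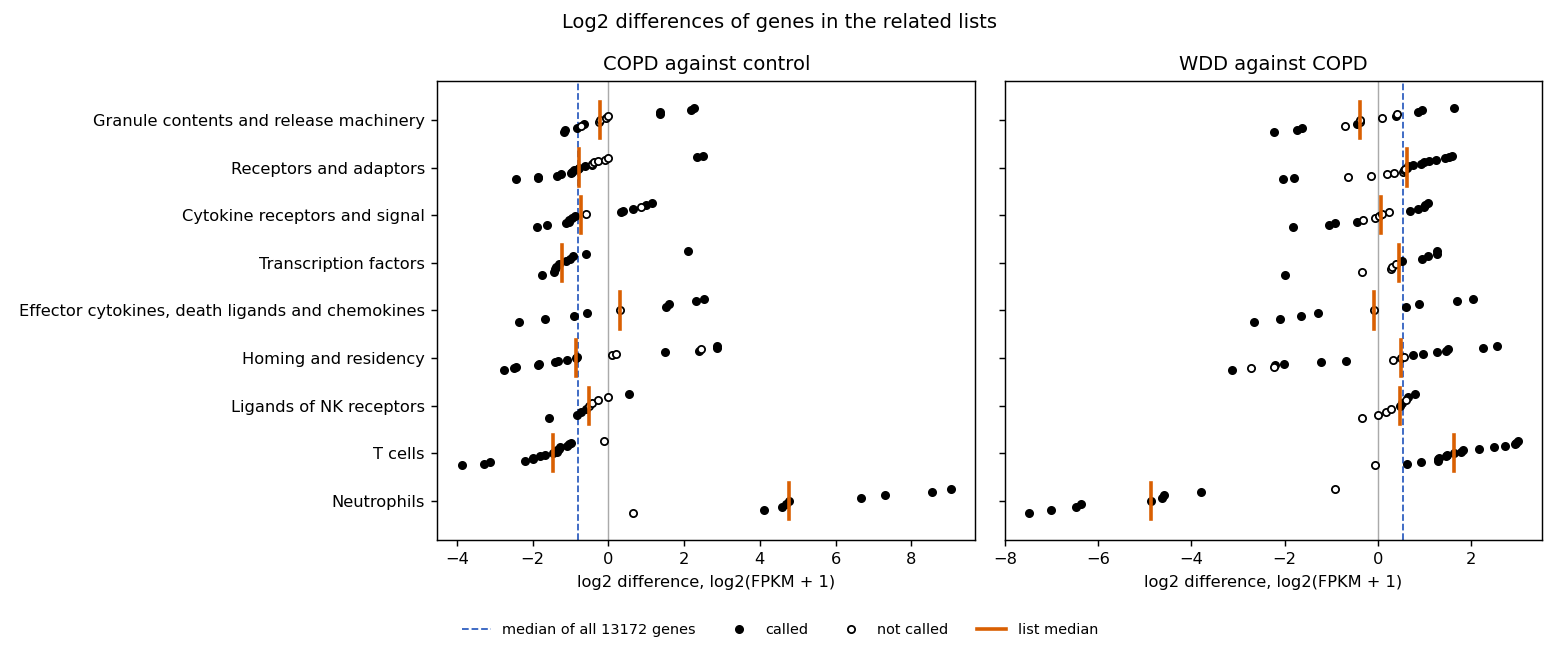
Log2 difference of each tested gene (horizontal axis, log2(FPKM + 1) scale) in the 7 related lists and among T cell and neutrophil markers (rows), filled where called by limma, with list medians as vertical bars and the median of all genes as a dashed line. T cell markers had a median of -1.47 in COPD against control and neutrophil markers one of 4.77, while the medians of the 7 related lists lay between -1.21 and 0.31.

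The genes most like the members in pattern were found from the root mean square difference, over the 15 libraries, between each gene's centred log2(FPKM + 1) profile and the median profile of the 8 tested members. The closest were Strbp at 0.197, Mycbp at 0.219, Btbd8 at 0.222, Wars2 and Cep63 at 0.224 each and Zbbx at 0.23. The median over all genes was 0.513, and the closest genes lie below it because they were picked for closeness. Of the 10 closest genes, 7 were also among the 10 closest after scaling. The members, from which the profile was built, lay between 0.216 for Prf1 and 1.01 for Klrk1, with Gzma at 0.846. Gzma and Klrk1 were thus farther from the members' common profile than the median gene was.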

How the data were processed

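RNA sequencing of 15 rat lung libraries was analysed from the authors' table of expression values. Per the labels' protocols, TRIzol was used to extract total RNA, of which 1 ug went into each NEBNext Ultra RNA library. Per the submitters' processing notes, cutadapt, HISAT2 and StringTie were used with genome build Rnor_6.0. Versions, strand setting and annotation release were not given in the sources used here. How reads of overlapping antisense genes and of near-identical Klr and granzyme genes were assigned is therefore not known, and their split is uncertain. The authors deposited FPKM for 22250 genes. Read counts were not analysed here; steps between low FPKM values put relative depth, with control 2 as the unit, at 0.879 in COPD 4, the lowest, to 1.11 in COPD 2, the highest.

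Values were used as log2(FPKM + 1), so fold changes of low genes are understated. The 13172 genes with at least 1 FPKM in at least 5 libraries entered 1 linear model with group as the factor, fitted to all 15 libraries in R 4.3.3 (limma 3.58.1, eBayes with trend). Two-sided p-values were adjusted across the tested genes of a comparison (Benjamini-Hochberg), and a gene with an adjusted p under 0.05 was called. Log2 ratios of 8 gene pairs were compared between groups by exact permutation tests, adjusted over 24 tests. Python 3.11.15 with numpy 2.4.6, pandas 2.3.3, scipy 1.17.1 and matplotlib 3.10.9 was used for these and for figures. The fit was tested on simulated data.

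The members and gene lists were chosen with earlier results of these data known. From each related list up to 4 genes of lowest p in COPD against control and up to 2 more in WDD against COPD could be named; 1 such gene is not reported here. The exact permutation test of each member and the long and short housekeeping lists were added after seeing the data. Listed symbols that occur more than once or match no row were not analysed here. Libraries with the same replicate number did not deviate together: 1 of 15 such pairs had a correlation above 0.1 (range -0.20 to 0.14). Alternatives covered the pseudocount (0.1, 0.5), the filter, 3 other scalings, variance models and weights, the groups and libraries in the fit, the replicate number as a factor and a minimum fold. WDD 4 and WDD 5 were the most alike libraries within a group, with a root mean square log2 difference of 0.235. The next closest pair stood at 0.342. They were kept separate, and averaged in an alternative. Pairs with COPD 5 were the least alike, at 0.92 to 1.01.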

Additional observations from a re-analysis of the deposited data

Results flagged for a closer look

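A library stood far from the other 4 of its group in 8 of the 54 sets of 5 values examined, judged by its gap to the nearest library as a share of the group's range. Chance alone sets apart about 1 in 20 where sets are independent and normally spread. Here ratios shared genes and Gzmb lay near 0, so 8 of 54 is not shown to exceed chance. COPD 5 stood apart in 4 values. Its Klrk1 was 17.4 FPKM, its Gzmb 0.0940 FPKM, its log2 ratio of Klrd1 to Cd3e -0.21 and its ratio of Nkg7 to Cd3e 1.46. The other COPD libraries had 2.19 to 5.59 FPKM of Klrk1 and Gzmb listed at 0. WDD 3 had a Tbx21 of 9.26 FPKM and a log2 ratio of Eomes to Tbx21 of -3.17. In WDD 5 Gzmb was at 0.206 FPKM, and in control 5 Klrd1 was at 8.49 FPKM.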

How the results depend on the processing

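Gzma was higher in COPD than in control lungs and called under every alternative run, with values of 1.25 to 1.61 when each library was left out. Klrd1 was likewise called higher in WDD than in COPD under every alternative run, at 1.18 to 1.499 with each library left out.

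The number of members called in COPD against control was 6. It was 3 after median-of-ratios scaling (3 higher, 0 lower), 3 with library weights, 3 without COPD 1 and COPD 5, 2 when a log2 difference of 1 or more was required, and 4 to 6 with each library left out. With no filter it was 8 (1 higher, 7 lower), as Gzmb and Eomes were then called too. In WDD against COPD it was 4, and 2 to 4 with each library left out, the lowest without COPD 2. Without COPD 1 and COPD 5 together it was 5 (3 higher, 2 lower). In WDD against control it was 0, against 2 after median-of-ratios scaling, 2 after quantile normalisation, 3 with library weights, 1 with no filter (Eomes), 1 with only the 2 groups compared, 2 without COPD 1 and COPD 5, and 0 to 2 with each library left out. The replicate block gave 6, 4 and 0; it lost Gzma (adjusted p = 0.0807) and gained Prf1 (0.037) in WDD against COPD.

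Over all genes, 9833, 8399 and 4915 were called in COPD against control, WDD against COPD and WDD against control. Requiring a log2 difference of 1 or more left 5840, 3314 and 1382, quantile normalisation gave 5379 in WDD against COPD, and library weights 8209 in WDD against control. Median-of-ratios scaling split the calls into 3977 higher and 4256 lower, 3073 and 2819, and 2100 and 2224.

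Signs reversed after median-of-ratios scaling for Nkg7 (0.18), Prf1 (0.10) and Tbx21 (0.50) in COPD against control, Nkg7 (-0.18) and Tbx21 (-0.28) in WDD against COPD, and Prf1 (0.17) and Tbx21 (0.22) in WDD against control. After quantile normalisation they reversed for Nkg7 (0.031), Prf1 (0.12), Klrd1 (0.16) and Tbx21 (0.76), then Nkg7 (-0.068) and Tbx21 (-0.35), then Prf1 (0.22), Ncr1 (0.11) and Tbx21 (0.41). Tbx21 reversed in WDD against COPD when scaled to the sum without mitochondrial genes (-0.041), and in WDD against control with WDD 4 and WDD 5 averaged (0.029). Median-of-ratios and quantile scaling level the middle of the libraries by construction; otherwise the cause was not tested. With each library left out, Ncr1 ranged from -0.12 to 0.13 in COPD against control, and in WDD against control Prf1 from -0.26 to 0.13 and Tbx21 from -0.17 to 0.063.

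Among ratios, a pseudocount of 0.1 gave -2.34 for Klrd1 to Cd3e in WDD against COPD (no longer called), -1.13 for Gzmb to Gzma in WDD against control (called), and -0.084 and -0.32 for Gzmb to Prf1 in COPD and WDD against control (reversed). Since Gzmb was near 0, its ratios follow the other gene. With each library left out, Gzmb to Prf1 ranged from 0.46 to 0.73 in COPD against control and from -0.18 to 0.19 in WDD against control, Klrd1 to Cd3e from -1.96 to -1.45 in WDD against COPD and from 0.51 to 0.74 in WDD against control, Gzmk to Gzma from -0.64 to -0.39 and Nkg7 to Cd3e from -0.34 to 0.017 in WDD against control, Eomes to Tbx21 from -0.27 to 0.10 in WDD against COPD, and Prf1 to Nkg7 from -0.25 to 0.046 in COPD against control. Read depth, strand use and RNA quality limit all values, and Gzmb and Eomes were too low for firm statements.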
